A study of Homo sapiens with 9 samples.

Results

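Untreated U251 cells carrying a pool of sgRNAs against 1117 genes, chiefly ubiquitin-system genes, were examined to find which targets were scarce and which were abundant in the absence of temozolomide. The 3 libraries labelled 0 µM were chosen by their dose label from 9 libraries in all, and each gene was read as the median of its 10 guides and as the number of its guides with no count. U251 is an established human glioma line, labelled as brain tumor cells and grown in DMEM with serum. The other 6 libraries came from the same kind of stable sgRNA-expressing cells exposed for 72 hours to temozolomide, an alkylating drug used against glioma, with 3 libraries at 200 µM and 3 at 1500 µM. The titles state the doses in µM but the treatment protocol states nM, and the unit is used here only as a group name. The labels give neither the nuclease nor the vector, nor how long the cells had carried their guides, nor the makeup of the guide pool beforehand. They also do not say whether libraries 1, 2 and 3 are separate cultures, so p-values over libraries reflect a spread that may be technical only. Loss of cells that carried a guide and a low share of that guide in the starting pool cannot be told apart, because no earlier time point or plasmid pool was analysed here. Guide counts hold no expression values, so the labelled cell type could not be checked against marker genes.

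Ubiquitin is a small protein that cells attach to other proteins through a relay of enzymes. An E1 enzyme activates it, an E2 enzyme carries it, and an E3 ligase chooses the protein that receives it. Chains of ubiquitin send many proteins to the proteasome, a barrel-shaped protease with a 20S catalytic core and a 19S regulatory particle that recognises and unfolds the substrate. The largest ligase group is built on cullins, which are switched on by the ubiquitin-like protein NEDD8 and take up substrates through many interchangeable adaptors. The anaphase-promoting complex is a related ligase that destroys cyclins and securin so that cells can leave mitosis. In a pooled screen each guide marks the cells that carry it, and its share of the reads follows the share of those cells.

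The 3 untreated libraries held 1852954, 2309361 and 1852340 counts, or 166 to 207 counts per guide on average. Counts were scaled to CPM, a unit that gives every library the same total. The median gene, called the typical gene here, lay at 40.75, 43.09 and 52.37 CPM in libraries 1, 2 and 3. A count of 0 allows up to 3 counts, which is 1.62, 1.30 and 1.62 CPM, or 3.97, 3.02 and 3.09% of the typical gene. Differences between genes under this floor have no order, and this limit covers counting error only.

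Scarce targets were more frequent, and lay farther from the typical gene, than abundant ones. A gene was called below or above the typical gene when its difference on the log2(CPM + 1) scale exceeded the spread between the 3 libraries, by limma's moderated test with Benjamini-Hochberg adjustment over all 1117 genes. The test called 227 genes below, 20.3% of the table, and 68 above, 6.09%. The genes called below had a median difference of -2.41 and reached -5.49, whereas the genes called above lay between 0.96 and 1.87, and the median over all genes was 0.04. In size, 164 genes (14.7%) stood at no more than 0.5 times the typical level in all 3 libraries, and 20 (1.79%) at no less than 2 times. By that rule SMAD5 and UEVLD lay just inside the lower limit, with highest values of 49.7% of the typical gene, and GID8, KMT2D and MED10 just outside it at 50.3%.

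The abundant calls were lost more often than the scarce ones when a library was left out. Without library 1 the test called 184 genes below and 29 above, without library 2 it called 205 and 41, and without library 3 it called 173 and 14. Each of these fits has fewer libraries and so less power, and small differences lose their call first. A call lost this way, here and below, therefore does not by itself show dependence on the library left out. A second limma test used the spread between the 10 guides of a gene, each averaged over the libraries, in place of the spread between libraries, and is named here the test over guides. It called 144 genes below (12.9%), all of them also called over libraries, and 9 above (0.806%), of which 8 were shared. Of all calls over libraries, 76.9% were below. With the mean gene as the reference in place of the median gene, every gene value moved up by 0.40, and the calls were 189 below and 287 above, so that only 39.7% were below.

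**Figure D1:**
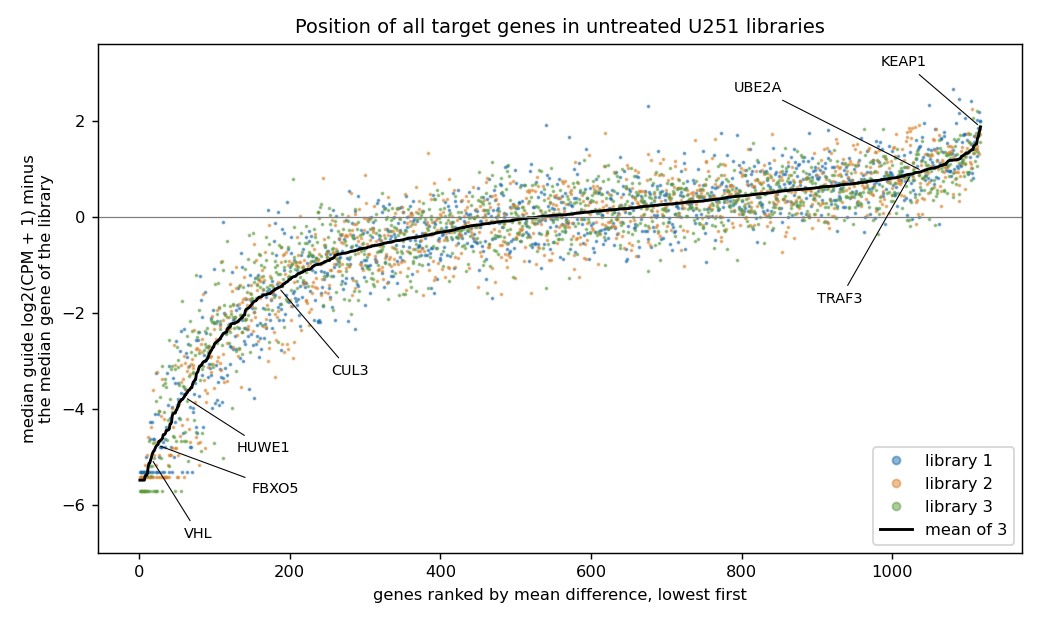
Position of the 1117 target genes in the untreated libraries. The vertical axis is the median guide's log2(CPM + 1) minus the median gene of the library, genes are ranked along the horizontal axis by the mean of the 3 libraries (black line), and points are libraries 1, 2 and 3. The lower end runs down to -5.49, where the flat rows of points are genes whose median guide had no count, and the upper end reaches 1.87 at KEAP1.

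The scarcest targets were parts of machinery that most dividing cells use. In 7 genes the median guide had no count in any of the 3 libraries. They included the 20S core subunits PSMA2 and PSMA3, the mitochondrial chaperone HSPA9, the spindle checkpoint gene MAD2L1, the splicing ligase PRPF19 and VCP, an ATPase that pulls ubiquitinated proteins out of complexes and membranes. Their median guides were at least 25.2-, 33.1- and 32.4-fold below the typical gene in libraries 1, 2 and 3, counted against the floor of 3 counts per library. The fitted difference was -5.49 on the log2(CPM + 1) scale for each of them (limma adjusted p = 9.9e-07). With medians of 0 in every library, that p-value reflects only how the typical gene varied between libraries. It does not measure a spread of these genes. These genes had no order among themselves. PSMA2 and PSMA3 each had 5 guides that were absent from all 3 libraries, the highest number in the table.

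A further 14 genes brought to 21 those whose median guide had at most 3 counts in each untreated library. The median guide of PSMB1, a 20S subunit, stood at 0, 0.22 and 0 CPM. That of HSPA5, the chaperone of the endoplasmic reticulum, stood at 0.27, 0 and 0 CPM. SMU1, a splicing factor, stood at 0, 0.43 and 0 CPM, and all 10 of its guides were under the median guide in every untreated library. PLK1, the mitotic kinase, stood at 0, 1.08 and 0 CPM and likewise had 10 of 10 guides under the median guide. FBXO5 and CDC20 were the other genes with 10 of 10, and 54 genes in all had at least 8 guides under, each of them called below.

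Ubiquitin precursor genes did not stand at one level. RPS27A, which makes ubiquitin fused to a ribosomal protein, had median guides at 6.75, 3.25 and 0 CPM and was called below (difference -3.84, SD 1.71, adjusted p = 0.00035). UBB, which encodes a chain of ubiquitin units, stood at 19.2, 44.6 and 42.4 CPM and was not called (difference -0.62, adjusted p = 0.18). UBB had 4, 3 and 4 guides at 0 but also 3 guides over the median guide in all 3 libraries. Guides against such repeated coding sequences may match more than 1 place, so their values are uncertain.

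Of 10 E1 activating enzymes, 6 were called below (60%, beside 20.3% of all genes) and none above. All 6 were also called over guides. UBA1, the main E1 of ubiquitin, had median guides at 0.54, 0 and 3.78 CPM, low in all 3 libraries (difference -4.54, SD 0.97, adjusted p = 1.4e-05). UBA6, the other E1 that can charge ubiquitin, stood at 63.7, 77.7 and 52.1 CPM, 145% ± 41.5 of the typical gene (SD, n = 3), and was not called (adjusted p = 0.29). UBA7, which charges the interferon-induced modifier ISG15, stood at 40.5, 57.4 and 66.1 CPM and was not called either. The pair NAE1 and UBA3, which activates NEDD8, lay at -3.0 and -2.62, and the pair SAE1 and UBA2, which activates SUMO, at -1.74 and -2.80, with all 4 called below by both tests.

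Among 38 E2 conjugating enzymes the calls were 9 below and 2 above, a share below of 23.7% beside 20.3% of all genes. Of the 9, 3 were called below by the test over guides, UBE2N and UBE2M among them. UBE2N, which builds the chains used in signalling and repair, had median guides at 0.54, 1.52 and 0.81 CPM (difference -4.65, SD 0.46, adjusted p = 3.3e-06). UBE2M, one of the E2 enzymes of NEDD8, stood at 2.16, 9.74 and 1.89 CPM (difference -3.43, adjusted p = 9.1e-05), whereas UBE2F, the other, stood at 43.2, 19.7 and 52.6 CPM and was not called. The partner proteins of UBE2N, UBE2V1 and UBE2V2, were called below over libraries at -1.49 and -1.54 but not over guides (adjusted p = 0.57 and 0.34), and the call of UBE2V1 was lost without library 2 (-1.19). The 2 E2 genes called above were UBE2O and UBE2Q2, at 1.01 and 1.02, and leaving out any library ended both calls (0.82 to 1.22 for UBE2O, and 0.72 at the lowest for UBE2Q2). The median of the 38 E2 genes was -0.38 and became 0.02 with the mean gene as reference, so the direction of that group is not settled.

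The proteasome held the largest group of scarce targets. Of 19 genes of the 20S core, 15 were called below (78.9%, beside 20.3% of all genes) and 1 above. The test over guides called 13 below, and the group median was -4.10. Of 18 measured genes of the 19S particle, 13 were called below (72.2%, beside 20.3% of all genes) and 1 above. Of the 13, 11 were also called over guides, and the group median was -2.53. In PSMA3 the highest guide was at 45.3, 5.63 and 7.02 CPM, and 7, 9 and 8 of its 10 guides had no count. PSMC4, an ATPase of the 19S base, had median guides at 1.08, 0 and 0 CPM (difference -5.13, SD 0.77, adjusted p = 3.5e-06). PSMD4, a ubiquitin receptor, stood at 2.97, 0 and 7.02 CPM (difference -4.02, SD 1.36, adjusted p = 9.3e-05). PSMC5, another ATPase of the base, was called below at -1.49, but library 1 lay at 0.10 and the other libraries at -1.95 and -2.61. Its call was lost without library 3 (-0.93). Of the 227 genes called below, 225 were under the typical gene in each library.

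Within the 20S core the catalytic subunits of the standard and of the immune form of the proteasome lay apart. PSMB5, PSMB6 and PSMB7, the standard catalytic subunits, had differences of -4.80, -3.71 and -4.74, each called below by both tests. PSMB8, PSMB9 and PSMB10, which replace them in cells exposed to interferon, lay at 1.37, 0.15 and 0.24. PSMB8 stood at 95.5, 94.2 and 173 CPM, high in all 3 libraries, and was called above over libraries (adjusted p = 0.0083) but not over guides (adjusted p = 0.36), and its call was lost without library 3 (1.2). PSMA8, the germ-cell form of PSMA7, stood at 3.51, 3.68 and 37.0 CPM, so libraries 1 and 2 were low and library 3 was near the typical gene (difference -2.40, adjusted p = 0.0064). It was not called over guides (adjusted p = 0.095) or without library 1 (-1.96), and guides against it may match PSMA7 as well. These contrasts between related genes were chosen after their values were seen and carry no test.

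The measured assembly chaperones of the 19S base were not scarce, and of the lasting 19S subunits PSMD6 (-1.36) and PSMD8 (-0.17) were not called. PSMD5, PSMD9 and PSMD10 help to build the base and do not stay in the finished particle. PSMD5 stood at 50.5, 64.7 and 52.4 CPM and PSMD10 at 75, 86.8 and 73.7 CPM, and neither was called. PSMD9 stood at 84.2, 76.6 and 170 CPM and was called above over libraries (difference 1.21, adjusted p = 0.019) but not over guides, and not without library 1 (1.27) or library 3 (0.96). Among the 8 activators, inhibitors and assembly factors looked at after their values were seen, none was called below and PSMD9 and PSME4 were called above. Of all genes 20.3% were called below and 6.09% above. PSME4, an alternative cap of the core, stood at 132, 110 and 93.7 CPM, with 8 guides over the median guide in all 3 libraries (difference 1.29, adjusted p = 0.014). Its call was lost without library 1 (1.07). The peptidases IDE, BLMH and TPP2, which can cut peptides, were also called above over libraries, at 1.52, 1.32 and 1.31, and none of them over guides. The call of BLMH was lost without library 2 (1.12) or 3 (1.31), and that of TPP2 without library 1 (1.11) or 3 (1.42).

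**Figure D2:**
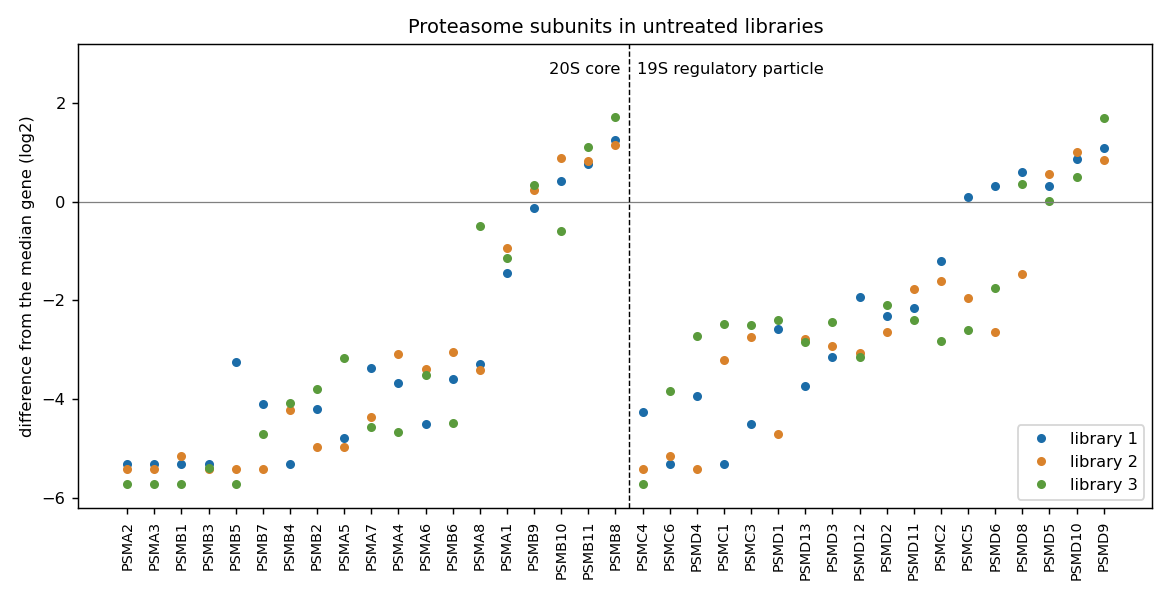
Difference from the median gene (log2, vertical axis) of each 20S and 19S proteasome gene in untreated libraries 1, 2 and 3 (coloured points). Most subunits lie between -2 and -6 in each library, whereas PSMB8, PSMB9, PSMB10 and PSMB11 of the core and PSMD5, PSMD9 and PSMD10 of the 19S group lie near or over 0.

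Parts of the anaphase-promoting complex were nearly as scarce. Of 18 genes of the complex, its coactivators and its E2 enzymes, 12 were called below (66.7%, beside 20.3% of all genes) and none above. Of the 12, 11 were also called over guides, and the group median was -2.56. CDC23, CDC16 and CDC27, which form the repeat-protein arm, had median guides between 0 and 1.73 CPM in every library and differences of -5.08, -4.92 and -4.68. The scaffold genes ANAPC4 and ANAPC5 lay at -4.63 and -4.53. ANAPC7 (0.05), ANAPC13 (-0.60) and ANAPC16 (0.93), and the E2 enzymes UBE2C (0.23) and UBE2S (-0.38), were not called.

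The 2 coactivators of the complex differed. CDC20, which works in early mitosis, had median guides at 1.62, 0.65 and 2.43 CPM, 3.37% ± 1.65 of the typical gene (difference -4.28, adjusted p = 5.9e-06; over guides 4.5e-06). FZR1, which takes over in late mitosis and G1, stood at 78.3, 45.3 and 30.2 CPM (difference 0.07, SD 0.83, adjusted p = 0.91). Its libraries spread on both sides of the typical gene.

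FBXO5, the inhibitor of the complex named in the title of the series, was among the scarcest targets without drug. Its median guide stood at 0, 3.90 and 0 CPM, so that library 2 was the highest and still at 9.05% of the typical gene. All 10 guides were under the median guide in each untreated library, and 6, 4 and 6 of them had no count. It was called below by both tests (difference -4.76, SD 1.34, adjusted p = 2.7e-05; over guides 2.6e-06). In the 6 treated libraries its median guide lay between 0 and 1.52 CPM. In libraries 1 and 3, with medians at 0, a further decrease would not be detectable at this depth. FBXO43, the related inhibitor known from germ cells, stood at 4.32, 16.2 and 12.4 CPM and was called below over libraries (difference -2.14, adjusted p = 0.0013) but not over guides (adjusted p = 0.087). DOK6, the other gene in the title, was not analysed here.

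Mitotic kinases and checkpoint genes were mostly scarce too, with 9 of 11 called below (81.8%, beside 20.3% of all genes). Of the 9, 6 were also called over guides. AURKA stood at 0, 0 and 5.13 CPM (difference -4.62, adjusted p = 3e-05). BIRC5, the survivin subunit of the chromosomal passenger complex, stood at 0.54, 0 and 7.02 CPM (difference -4.66, adjusted p = 7.6e-06). CDK1, the kinase that drives entry into mitosis, stood at 2.70, 6.71 and 4.59 CPM (difference -3.44, SD 0.48, adjusted p = 2.6e-05). BUB1B, a checkpoint kinase, was less even, at 36.4, 6.06 and 25.1 CPM, and was called over libraries (adjusted p = 0.032) but not over guides (adjusted p = 0.26), nor without library 2 (-0.85) or library 3 (-1.45). MAD1L1 stood at 47.2, 41.1 and 40.2 CPM and CDCA3 at a difference of -0.24, and neither was called. Of 9 cyclins, kinases and kinase inhibitors, CCNC, CDK1 and CCNB1 were called below (33.3%, beside 20.3% of all genes). The call of CCNB1, at -1.10, was lost when any library was left out (-1.24 to -0.92). The inhibitors CDKN1A, CDKN1B and CDKN2A, at 0.12, 0.61 and 0.02, were not called.

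The NEDD8 pathway that activates cullins was scarce nearly throughout. Of 8 measured genes 6 were called below (75%, beside 20.3% of all genes), 5 of them over guides, with a group median of -2.81. NEDD8 itself stood at 3.24, 0 and 1.08 CPM (difference -4.44, SD 1.10, adjusted p = 2.4e-05). RBX1, the RING subunit of most cullin ligases, stood at 1.62, 0.65 and 4.86 CPM (difference -4.09, adjusted p = 2e-05), whereas RNF7, the RING subunit used by CUL5, stood at 16.2, 45.7 and 31.6 CPM and was not called. DCUN1D1, a co-factor of neddylation, stood at 3.78, 28.6 and 29.4 CPM and was called below over libraries only (adjusted p = 0.038; over guides 0.62). Library 1 was the low one, and the call was lost without library 1 (-0.75) or library 3 (-2.16).

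Cullins themselves covered a wide range. CUL2 stood at 1.35, 1.95 and 3.78 CPM, 5.02% ± 2.0 of the typical gene (difference -3.86, SD 0.34, adjusted p = 9.1e-06). CUL1 stood at 0.54, 6.93 and 6.48 CPM (difference -3.56, adjusted p = 9.4e-05). CUL3 stood at 9.98, 15.8 and 22.1 CPM and was called over libraries (difference -1.47, adjusted p = 0.006) but not over guides (adjusted p = 0.44). CUL5 (-0.88), CUL7 (-0.23), CUL4A (-0.11) and CUL9 (0.19) were not called. CUL4B, the paralogue of CUL4A, stood at 77.4, 107 and 122 CPM and was called above over libraries (difference 1.17, adjusted p = 0.017) but not over guides, nor without library 2 (1.09) or 3 (1.15). DDB1, the adaptor that both CUL4 proteins use, stood at 11.3, 5.85 and 1.08 CPM and was called below by both tests (difference -3.09, adjusted p = 0.0012).

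The ligase built on CUL2 contained the scarcest substrate receptor. VHL, which targets hypoxia-inducible factor for destruction and is a tumour suppressor in kidney, had median guides at 0, 1.08 and 0.27 CPM (difference -5.03, SD 0.57, adjusted p = 2.5e-06; over guides 0.00024). Of its 10 guides 8 were under the median guide in each library, and 3 were absent from all of them. One guide behaved differently: VHL.6 had 208, 241 and 802 counts and made up 94.5% of the gene's counts in library 1 and 91.1% in library 3. In library 2 another guide, VHL.5, led with 78.8%. The adaptor TCEB1, elongin C, stood at 2.70, 1.95 and 6.21 CPM (difference -3.40), and LRR1, another CUL2 receptor, lay at -4.44. TCEB2, elongin B, lay at -0.63 and was not called. Of these 6 genes of the VHL group, chosen after their values were seen, 5 were called below by both tests, beside 12.9% of all genes. KLHDC2, also a CUL2 receptor, was not put in this group. It was called above over libraries, with median guides at 159, 152 and 155 CPM, so CUL2 receptors were not all scarce.

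The ligase built on CUL3 contained the most abundant target. KEAP1, the receptor that marks the stress regulator NFE2L2 for destruction, had median guides at 158, 141 and 196 CPM. This was 363% ± 32.3 of the typical gene (SD, n = 3), high in all 3 libraries, with a difference of 1.87 (SD 0.14, adjusted p = 0.001). Of its 10 guides 8 were over the median guide in each library and none was at 0, and the gene was also called over guides (adjusted p = 0.033). In the 6 treated libraries it lay between 121 and 194 CPM. KEAP1 was the only gene at 3 times the typical level or more in all 3 untreated libraries. It works with CUL3 and RBX1, which were both called below over libraries. NFE2L2 itself, which turns on antioxidant genes, stood at 39.7, 39.0 and 21.3 CPM and was not called (difference -0.46, adjusted p = 0.36).

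**Figure D3:**
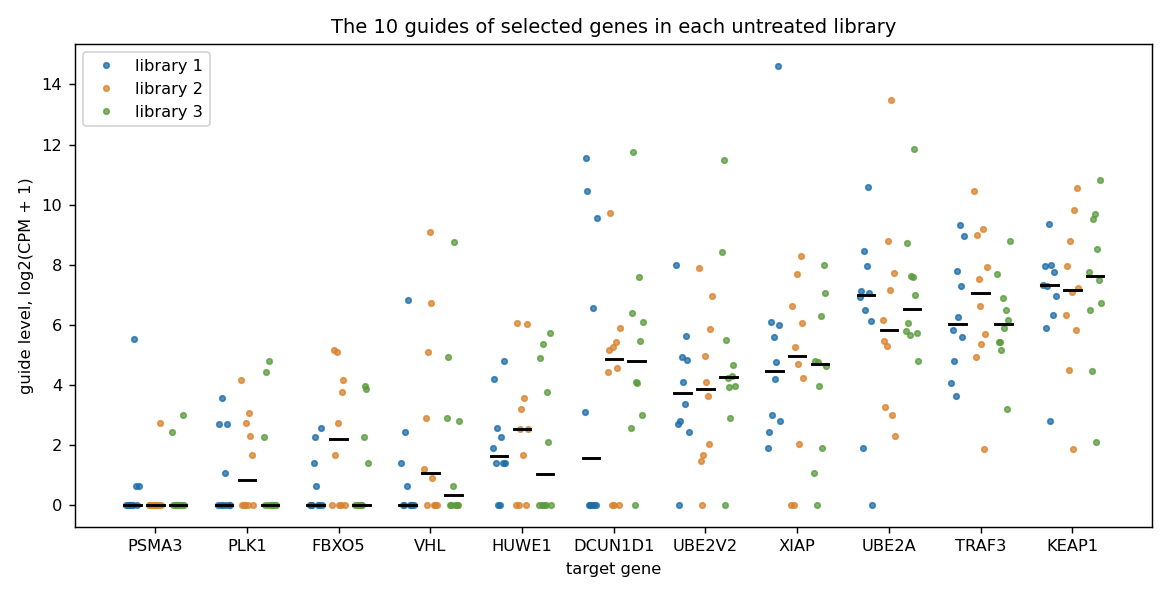
Level of each of the 10 guides, as log2(CPM + 1) on the vertical axis, for 11 genes in untreated libraries 1, 2 and 3 (coloured points), with the median of the 10 as a black bar. The guides of PSMA3, PLK1 and FBXO5 lie mostly at 0, the guides of KEAP1 lie mostly over 6, and DCUN1D1, XIAP, UBE2V2 and UBE2A each hold a guide over 11 in at least 1 library.

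Substrate adaptor families lay mostly near the typical gene. None of 49 KLHL and KBTBD Kelch adaptors was called below and 5 were called above, which were KLHL1, KBTBD2, KLHL25, KLHL38 and KEAP1. Of these 5, only KEAP1 kept its call when any library was left out, and the others lost theirs each time, at differences of 0.82 to 1.40. Of 37 FBXO genes 2 were called below, FBXO5 and FBXO43, and 3 above. Of 18 FBXL genes 1 was called, below, and of 10 FBXW genes 2 were called, above. Among 23 KCTD adaptors 1 was called below and 2 above, and among 18 ASB adaptors 1 each way. None of 20 CUL4 substrate receptors was called. The share called below was thus 0 to 5.56% in these 7 groups, beside 20.3% of all genes, and their medians lay between 0.09 and 0.49.

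The larger RING families were similar. Of 80 RNF genes 8 were called below (10.0%, beside 20.3% of all genes) and 2 above, with a median of 0.13. RNF4, which recognises SUMO chains, stood at 1.35, 0 and 3.78 CPM (difference -4.45, adjusted p = 1.5e-05). RNF20 and RNF40, partners that attach ubiquitin to histone H2B, lay at -3.71 and -2.05. Of 70 TRIM genes 6 were called below (8.57%, beside 20.3% of all genes) and 6 above. TRIM51, TRIM49B, TRIM43, TRIM61 and TRIM48 were 5 of those below. They belong to clusters of near-identical copies, so a guide may match several of them and their values are uncertain. Of 11 measured TRIM genes of such clusters, grouped after values were seen, 5 were called below (45.5%, beside 20.3% of all genes). The other 6 were not called, up to TRIM64 at 0.42. The calls of TRIM43 (-1.25) and TRIM61 (-1.17) were lost without library 1, and that of TRIM48 without library 1 (-1.22) or 3 (-1.27). TRIM6, at 127, 137 and 118 CPM, was called above by both tests (difference 1.5, adjusted p = 0.0048; over guides 0.024).

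Of 20 HECT ligases outside the NEDD4 family, 4 were called below (20%, beside 20.3% of all genes), 2 of them over guides, and 1 above. HUWE1, a very large ligase with many substrates, stood at 2.16, 4.76 and 1.62 CPM, low in all 3 libraries (difference -3.75, SD 0.89, adjusted p = 3.6e-05; over guides 0.00032). Its highest guide reached 26.4, 65.4 and 52.4 CPM. G2E3 was called below by both tests, but library 3, at 24.6 CPM, stood apart from 1.35 and 1.08 CPM in libraries 1 and 2. HERC2 and TRIP12 were called below over libraries only, at -1.13 and -1.10. HERC2 lost its call without any 1 of the libraries (-1.41 to -0.96), and TRIP12 without library 2 (-0.78) or 3 (-1.08). HERC3 was called above by both tests at 1.06, but not without library 1 (1.04) or 3 (0.88). Of the 9 ligases of the NEDD4 family, only WWP1 was called, below at -1.91 (11.1%, beside 20.3% of all genes), and not over guides.

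Genes of SUMO and UFM1 were scarce at the core of each pathway. In these pathways 9 of 24 genes were called below and none above, a share below of 37.5% beside 20.3% of all genes. The E1 pair of SUMO and RNF4 are described above. SUMO2 was called below at -2.29, whereas SUMO3 (-0.09) was not. UFC1, the E2 of UFM1, stood at 0, 6.71 and 9.72 CPM (difference -3.56, adjusted p = 0.00039). UFM1 lay at -1.75, a call lost without library 1 (-1.28) or 3 (-1.78), and its ligase UFL1 lay at 0.12 and was not called. The SUMO ligases PIAS1, PIAS2, PIAS3 and PIAS4 lay between -0.44 and 0.75, and none was called.

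Chaperones and the endoplasmic reticulum degradation route had scarce members at their core. Of 9 genes of the chaperonin, of HSP70 and of HSP70 partners, 6 were called below (66.7%, beside 20.3% of all genes). Among the partners, the ligase STUB1 was called below over libraries only (-1.09), and BAG5, BAG6 and HSPBP1 were not called. TCP1, a subunit of the chaperonin that folds actin and tubulin, stood at 0.27, 6.28 and 1.89 CPM (difference -4.09, adjusted p = 5.7e-05). CCT2, another subunit, stood at 3.78, 13.2 and 8.91 CPM with an SD of 0.20, but 3 of its guides were over the median guide in all 3 libraries, and it was not called over guides (adjusted p = 0.16). Of 16 degradation genes 5 were called below (31.2%, beside 20.3% of all genes). VCP was at 0, its co-factor UFD1L lay at -2.23 and the ligase SYVN1 at -1.82 (9.71, 14.1 and 15.7 CPM). The call of UFD1L was lost without library 3 (-1.35). The ligases RNF139 (-0.59), RNF145 (0.59) and RNF185 (-0.61) were not called.

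Genes of transcription and splicing machinery that carry or bind ubiquitin ligases were among the scarcest. Of 13 such genes 11 were called below (84.6%, beside 20.3% of all genes), 10 of them over guides, with a group median of -2.54. PPIL2 (-1.17) and CNOT4 (0.32) were the members not called. CTR9, WDR61 and CDC73, of the PAF1 complex that travels with RNA polymerase II, lay at -3.58, -2.41 and -3.81. CDC73 was uneven, at 0, 1.73 and 17.5 CPM. PAF1 itself lay at 0.01 and LEO1 at -0.42, and neither was called. CDC73, PAF1, LEO1 and the gene WAC were not among the 13. In a group for H2B ubiquitination and the PAF1 complex, formed after values were seen, 6 of 8 genes were called below. WAC, which recruits RNF20 and RNF40 to H2B, had the largest SD of the genes called below, 2.47, at 36.4, 9.96 and 0.81 CPM. Its call was lost without library 3 (-1.13).

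The Mediator complex, which connects activators to RNA polymerase II, had 9 of 13 genes called below (69.2%, beside 20.3% of all genes). MED11 stood at 0, 2.6 and 0 CPM (difference -4.89, adjusted p = 1.3e-05) and MED17 at 2.70, 4.55 and 0 CPM (difference -4.09). MED6 and MED31 lay at -3.03 and -3.02. MED8 (-1.24), MED12 (-0.28), MED23 (0.48) and MED24 (0.63) were not called. Of 23 coactivator genes of TFIID, SAGA and ATAC, 8 were called below (34.8%, beside 20.3% of all genes), led by TRRAP at -2.97 and ENY2 at -2.78. SUPT20H was called above at 1.07, though not when any library was left out (1.02 to 1.13). The enzymes KAT2A (0.48), KAT2B (-0.21) and USP22 (0.29) were not called.

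Of 15 Polycomb genes 1 was called below and 3 above, where 20.3% of all genes were called below and 6.09% above. BCOR, RING1 and RBBP7 lay at 1.39, 1.09 and 1.02, each called over libraries and none over guides. BCOR stood at 211, 85.3 and 88.3 CPM, so library 1 was the high one. Its call was lost without library 1 (0.89) or 3 (1.71), and those of RING1 (1.0 to 1.16) and RBBP7 (0.82 to 1.22) when any library was left out. RNF2, the partner ligase of RING1, stood at 18.1, 31.0 and 21.6 CPM and was not called (adjusted p = 0.053). PHC1 was called below over libraries at -1.18, but not without library 1 (-0.75) or 3 (-1.5), and it lay at 0.43 when guide counts were summed in place of taking the median.

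Of 22 measured genes of DNA damage ubiquitin signalling, 11 were called below (50%, beside 20.3% of all genes), 6 of them also over guides, and none above, with a group median of -1.0. TRAIP, a ligase of the replication machinery, stood at 4.86, 0.87 and 3.51 CPM (difference -3.86, adjusted p = 3.4e-05). BRCA2, a mediator of strand exchange, stood at 18.6, 8.44 and 1.08 CPM (difference -2.71, SD 1.84, adjusted p = 0.0049). BARD1 and BRCA1, which form a ligase together, lay at -2.65 and -1.57, both called by both tests. Without library 3 the calls of BRCA2 (-1.71) and BRCA1 (-1.38) were lost. RNF8 was called below over libraries at -1.45, but not without library 1 (-0.79) or 3 (-1.86). RNF168 (-0.61), RAD18 (0.88), HLTF (0.23) and SHPRH (0.21), of break signalling and damage tolerance, were not called. MGMT, which reverses the base damage made by temozolomide, was not analysed here.

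Of 11 ligases that act on p53, a stress-induced tumour suppressor protein, MDM2 and RFWD2 were called below over libraries (18.2%, beside 20.3% of all genes), and neither over guides. MDM2, the main ligase of p53, stood at 8.90, 17.8 and 26.7 CPM (difference -1.38, adjusted p = 0.012; over guides 0.16), and was not called without library 1 (-1.06). RFWD2, at -1.13, was not called without library 2 (-1.0) or 3 (-1.03). The relative of MDM2, MDM4, stood at 45.3, 32.7 and 56.1 CPM (adjusted p = 0.92). Of 21 genes with growth-restraining roles in other settings, VHL and CUL3 were called below (9.52%, beside 20.3% of all genes) and KEAP1 above. FBXW7 (0.26), RB1 (0.16), AXIN1 (0.63), RNF43 (0.41) and TNFAIP3 (0.42) were not called.

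NF-κB regulators held no gene called below among 18, where 20.3% of all genes were called below. SHARPIN, a subunit of the linear ubiquitin ligase, stood at 117, 119 and 141 CPM and was called above over libraries (difference 1.48, SD 0.07, adjusted p = 0.0043) but not over guides (adjusted p = 0.10). RBCK1 (-0.18) and RNF31 (0.01), the other subunits, were not called. BIRC2, a ligase that restrains the alternative NF-κB route, stood at 119, 95.7 and 92.3 CPM and was called above by both tests (difference 1.19, adjusted p = 0.019; over guides 0.036), but not over libraries when any library was left out (0.99 to 1.38). BIRC3, its close relative, stood at 41.3, 71.7 and 76.9 CPM and was not called. TRAF3, which works with BIRC2, stood at 65.0, 140 and 64.5 CPM, with no guide at 0, and was not called (difference 0.89, adjusted p = 0.094).

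**Figure D4:**
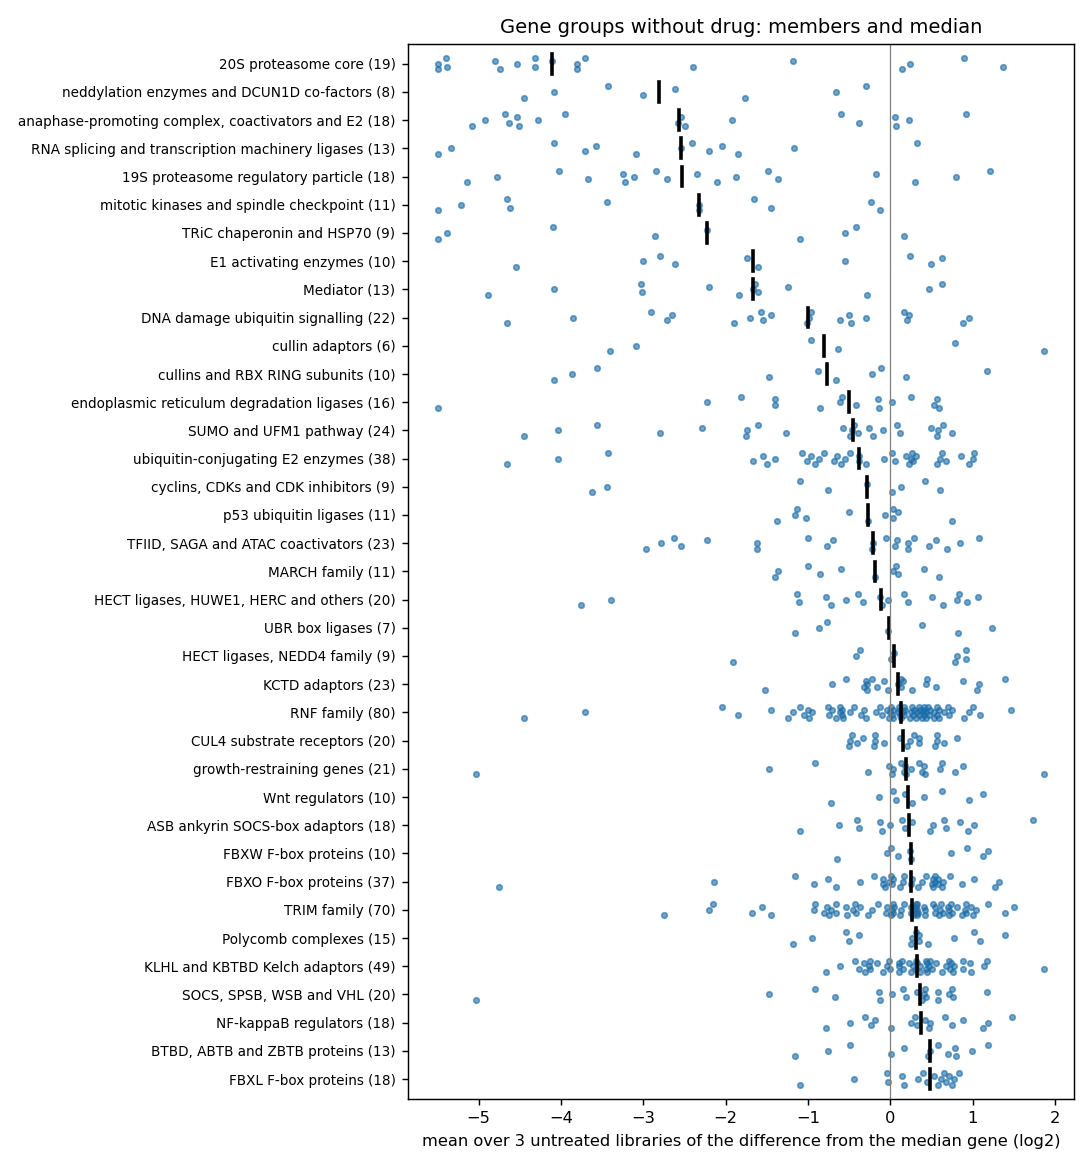
Gene groups in the untreated libraries. Each point is a gene at its mean difference from the median gene over the 3 libraries (log2, horizontal axis), black bars are group medians, and the number of measured genes is in parentheses. The 20S core, with a median of -4.10, lies lowest, and adaptor families such as FBXL, with 0.49, lie at the right.

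The abundant end of the ranking did not gather in 1 complex. After KEAP1 the largest differences were those of KLHDC2, a CUL2 receptor for glycine-ended proteins, at 1.80, ASB11, a CUL5 receptor, at 1.73, ZNF645, at 1.65, and UBXN11, at 1.63. KLHDC2 stood at 159, 152 and 155 CPM, 346% ± 47.4 of the typical gene (adjusted p = 0.0014), with 6 guides over the median guide in all 3 libraries. IDE (1.52), DYRK2 (1.51), TRIM6 (1.5), SHARPIN (1.48), RNF112 (1.47), KCTD8 (1.40), TRIM35 (1.39), BCOR (1.39), SYTL4 (1.38) and PSMB8 (1.37) completed the 15 highest. Of these 15 only KEAP1 and TRIM6 were also called over guides. Leaving out library 3 ended the calls of UBXN11 (1.34), DYRK2 (1.4), KCTD8 (1.07), TRIM35 (1.58), BCOR (1.71), SYTL4 (1.31) and PSMB8 (1.2). Leaving out library 2 ended that of TRIM35 (0.97), and leaving out library 1 that of BCOR (0.89). The other genes called above by both tests were CRY1, NFXL1, CALR, BTBD1, BIRC2 and HERC3, and each of them lost the call over libraries without at least 1 library. CRY1 lost it without library 3 (1.24), NFXL1 without library 2 (1.13), and CALR and BTBD1 without library 1 (0.72 and 0.81) or 3 (1.25 and 1.44). BIRC2 and HERC3 are given above. HSPB1 was called over guides but not over libraries (adjusted p = 0.083), at 254, 58.9 and 69.1 CPM. Only 5 genes in the table had 8 or more guides over the median guide in all 3 libraries, beside 54 with 8 or more under.

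A guide with no count was common in each untreated library and often not the same guide. Of 11170 guides, 1402, 1237 and 1120 were at 0 in libraries 1, 2 and 3, which is 12.6, 11.1 and 10.0%. Over the 3 libraries 1275 guides were at 0 in 1 library, 726 in 2 and 344 in all 3. Of these 344, 247 (71.8%) belonged to genes called below, which held 2270 of the 11170 guides, and 4 (1.16%) to genes called above. Counts of 0 enter the gene median, so this split is not independent of the calls. Guides missing from all 3 libraries were spread over 233 genes, and 30 genes had 3 or more. By another split of the same 344, 196 (57.0%) had counts in at least 1 treated library, with a highest count of 81. The other 148 were at 0 in all 9 libraries. In single libraries, 54, 52 and 40 genes had 5 or more guides at 0, 17 genes in all 3, and 214 genes had no guide at 0 in any.

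Guides that escaped the scarcity of their gene were few among the scarcest genes. Among the 300 guides of the 30 lowest genes, 4 were over the median guide in all 3 untreated libraries, and these were CDC27.2, HSPA5.1, PSMA2.10 and VHL.6. PSMA2.10 had 84, 113 and 618 counts while the median guide of PSMA2 had none. Over all 227 genes called below, 106 had at least 1 such guide and 121 had none. The median number of such guides per gene was 3 over all genes and 0 over those called below. Both sets of genes were chosen by the median of these same guides, so a low number is in part set by that choice.

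The libraries agreed well on which genes were scarce and poorly on which were abundant. The 100 lowest genes of 2 libraries shared 78, 75 and 77 names for libraries 1 and 2, 1 and 3, and 2 and 3, with 66 in all 3. The 100 highest shared 29, 29 and 26, with 13 in all 3. Across genes, the values of 2 untreated libraries correlated with Pearson's r between 0.80 and 0.81 and Spearman's rho between 0.64 and 0.66. Single guides correlated at r between 0.53 and 0.57, and guides after subtraction of their gene's median at 0.43 to 0.48. These are descriptions across 1117 genes or 11170 guides that share libraries, and genes and guides are not independent replicates.

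Each untreated library was more like the treated libraries of its own number than like the other untreated libraries. Over the 9 pairs of libraries with the same number and different doses, gene values correlated at r between 0.88 and 0.94, single guides at 0.83 to 0.91, and guides within genes at 0.78 to 0.88. Guides within a gene therefore kept levels that were particular to the replicate number. The test over libraries takes these numbers as its only source of spread, and the labels do not say what a number stands for.

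**Figure D5:**
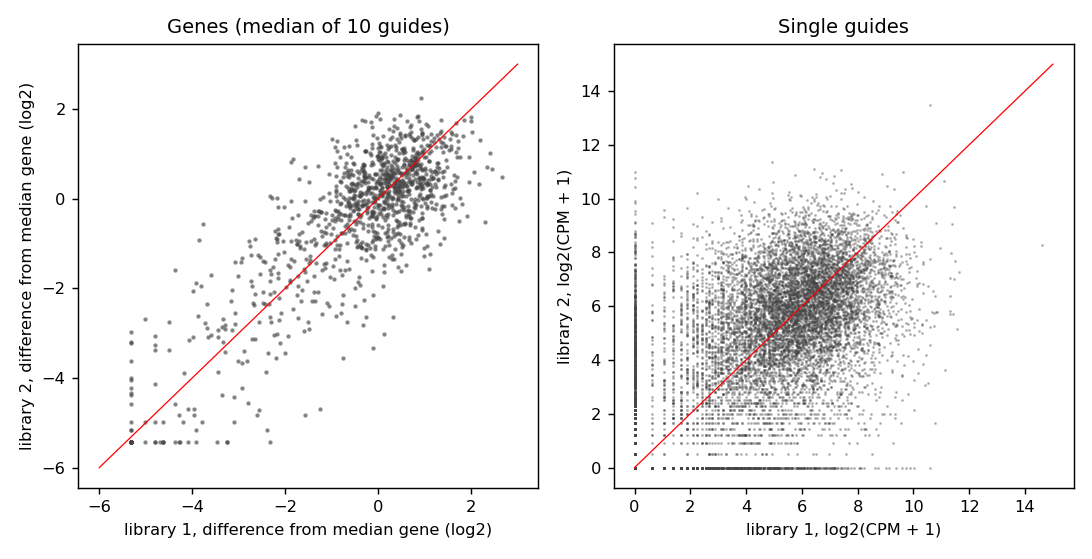
Agreement of untreated libraries 1 (horizontal) and 2 (vertical). The left panel shows gene values as log2 differences from the median gene, with r = 0.81, and the right panel shows single guides as log2(CPM + 1), with r = 0.53. The red lines mark equal values, and the row and column of points at 0 in the right panel are guides with no count in 1 of the libraries.

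A few guides took large shares of single libraries. The guide XIAP.8 had 46599 counts in library 1, 2.51% of that library (exact Clopper-Pearson 95% interval 2.49 to 2.54%), against 718 and 466 counts in libraries 2 and 3. It made up 99.1% of the counts of XIAP, an inhibitor of caspases, in library 1, while the median guide of XIAP stood at 21.6, 31.0 and 24.8 CPM and was not called (adjusted p = 0.099). The guide UBE2A.7 was the most abundant in libraries 2 and 3, with 26200 and 6805 counts, 1.13 and 0.367%, and had 2879 counts in library 1. The median guide of UBE2A, an E2 of damage tolerance, stood at 125, 56.7 and 96.4 CPM and was not called (difference 0.95, adjusted p = 0.07).

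Other leading guides were specific to a library. DCUN1D1.2 had 5585, 80 and 155 counts, PARK7.10 had 54, 6075 and 153, and UBE2V2.2 had 10, 4 and 5271. ARRDC3.1 had 5947, 359 and 1212 counts, and FBXO32.4 had 158, 5138 and 784. Of the 100 most abundant guides of each library, 279 of 288 different guides were in the top 100 of 1 library only. The exceptions shared by all 3 were UBE2A.7, DCUN1D1.3 and EP300.4, and EP300.4 had 4099, 3680 and 4633 counts. These top 100 guides held 16.2, 12.1 and 9.98% of the counts of libraries 1, 2 and 3. Of them 13, 11 and 10 were under the median guide in both other libraries.

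Genes with such a guide could lie on opposite sides of the typical gene by the median guide and by summed counts. DCUN1D1 lay at -1.76 by its median guide and at 1.79 by summed counts, and its leading guide, DCUN1D1.2 in library 1 and DCUN1D1.3 in libraries 2 and 3, held 57.3, 79.8 and 88.9% of its counts. UBE2V2 lay at -1.54 and 0.11, and its leading guide, UBE2V2.1 in libraries 1 and 2 and UBE2V2.2 in library 3, held 63.3, 48.9 and 85.5%. Several genes differed between libraries at the level of the median guide as well. RPA2, a single-strand DNA binding subunit, stood at 14.0, 4.55 and 94.2 CPM (SD 1.89, not called), and MALT1, a paracaspase, stood at 199, 29.0 and 23.2 CPM (SD 1.83, not called). The median SD over all genes was 0.51.

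Most scarce calls of the untreated libraries were also made in the treated libraries, and fewer of the abundant ones were. The same test called 198 genes below (17.7%) and 51 above (4.57%) at 200 µM, and 206 (18.4%) and 50 (4.48%) at 1500 µM. Of the 227 genes called below without drug, 186 (81.9%) were called below at 200 µM and 191 (84.1%) at 1500 µM, and none was called above. Of the 68 called above, 37 (54.4%) were called above at each dose. In all 6 treated libraries, 211 of the 227 lay under the typical gene and 65 of the 68 over it. The treated libraries carry the same replicate numbers, so these counts describe the series and are not independent evidence.

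By limma's test no gene's position relative to the typical gene was called different from the untreated libraries, with 0 calls at 200 and at 1500 µM, with or without the replicate number as a block. At an unadjusted p under 0.05 there were 5 and 10 genes without the block and 51 and 59 with it, of 1117 tested. Guides at 0 numbered 1253 ± 142 in the untreated libraries, 1557 ± 141 at 200 µM and 1337 ± 182 at 1500 µM (SD, n = 3). The difference of 304 guides at 200 µM had the smallest p that an exact two-sided permutation test of 3 against 3 can give, 0.10, and was 294, 178 and 439 within replicate numbers. The difference of 83.7 guides at 1500 µM gave p = 0.60 by the same exact permutation test. The Gini index, which is 0 when all guides have equal counts, was 0.657 ± 0.0364 without drug, 0.629 ± 0.0128 at 200 µM and 0.651 ± 0.0449 at 1500 µM (exact permutation p = 0.30 and 0.80). These tests cannot reach 0.05 at this number of libraries.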

How the data were processed

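The authors deposited raw sgRNA counts, as a single table of 11170 guides with 10 per gene, made with cutadapt 1.18 and MAGeCK 0.5.8 per the submitters' processing notes, which name hg19. Counting settings were not given in the sources used here. Counts were scaled to CPM. A gene's value was the median over its 10 guides of log2(CPM + 1), minus the library's median gene. This was tested with limma 3.58.1 (R 4.3.3; intercept only, two-sided, Benjamini-Hochberg over 1117 genes, threshold 0.05) in the 3 untreated libraries. There was no contrast of groups, so edgeR's count test was not used; edgeR 4.0.16 and DESeq2 1.42.0 gave alternative scaling factors. The test over guides was added after the data were seen, because the first test does not measure the spread between guides. Both were tried on simulated data, with outcomes not given here. The pass check of the test over libraries used guides with no level of their own, unlike these libraries. That check therefore does not show how the test behaves where guides keep their levels.

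Deviations of same-numbered libraries from their dose's mean had correlations of 0.52 to 0.62 over 9 pairs, above 0.1, so numbers were taken to pair libraries; the pairing comes from the data and the titles' numbers. The untreated comparison lies within 1 dose and takes no block. Library measures were compared with exact permutation and sign-flip tests.

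Members, lists and tests were chosen with earlier results of these data known. By rule the text names up to 15 called genes per direction, up to 4 called members of a list, up to 10 genes with most absent guides, the 8 of largest SD, the 3 leading guides per library and FBXO5, DOK6, MGMT, UBE2A, XIAP, HUWE1 and TRAF3. Other genes were chosen after their values were seen. None of the 9 listed COP9 signalosome genes was measured. Guide sequences and coordinates were not used here. Some targets are not reported here.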

Additional observations from a re-analysis of the deposited data

How the results depend on the processing

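The count of genes called below lay between 164 and 281 over the other settings and between 173 and 205 with 1 library left out, and it was 144 over guides, whose wider spread is part of that test's construction. The count called above moved more. It was 192 with the mean of the guides, 33 with summed counts, 287 with the mean gene as reference and 9 over guides, and 14 to 41 with 1 library left out. The cause was not tested. At 0.25 times the typical level or less in all 3 libraries 101 genes remained by size, and at 3 and 4 times or more 1 and 0. With 1 library left out, 36 to 43 genes lay at 2 times or more, since fewer libraries have to pass. DCUN1D1, UBE2V2 and PHC1 turned sign with summed counts, to 1.79, 0.11 and 0.43. CCT2 turned to 0.77 without guides under 10 counts, a filter that removes scarce guides. Of 3810 comparisons of a named gene with a setting, 3290 kept their side of the threshold, 461 lost the call and 55 gained one, and in the other 4 a called value turned sign. Signs of genes with no call were not counted. Of 179 named genes with a call, 79 kept it in all settings within the untreated libraries. With the replicate block, an exact sign-flip test over 3 pairs gave 304 more guides at 0 at 200 µM (p = 0.25, the smallest it can give) and 83.7 at 1500 µM, and Gini differences of -0.0285 and -0.00651, and the block left 0 genes called by position at both doses. The 8 lists whose medians turned above 0 with the mean gene as reference lay at -0.38 or nearer. Placing genes at 0 at their bound changed no list median. Depth limits the lower end, where 21 genes lie at or under 3 counts.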

Other observations

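Several gene groups that the comparisons above do not cover were looked at after their values were seen, and they are given as values with no test of the group. The 6 genes picked as cytoskeletal and housekeeping genes, a choice that need not cover all such genes, were all called below over libraries. Over libraries 20.3% of all genes were called below, and 5 of the 6 were also called over guides. GNB2L1, a ribosome-bound scaffold, stood at 2.97, 0.22 and 1.89 CPM (difference -4.44). ACTB stood at 4.32, 1.3 and 2.7 CPM (difference -3.66) and TUBB at 6.48, 1.95 and 7.29 CPM, low in all 3 libraries. The ribosomal gene RPLP0 lay at -3.05. ACTG1, at -2.05, resembles ACTB closely, so their guides may match both. GAPDH stood at 7.02, 11.3 and 38.6 CPM, and its call was lost without library 1 (-1.27).

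ESCRT genes, which sort ubiquitinated membrane proteins and close membrane necks, had 5 of 6 members called below (83.3%, beside 20.3% of all genes). Of the 5, 3 were also called over guides. The calls of VPS36 and UEVLD were lost without library 1 (-0.88 and -1.12) or library 3 (-1.14 and -1.38). TSG101, which binds ubiquitin, stood at 1.62, 0.87 and 12.4 CPM (difference -3.61), VPS28 at 7.02, 0 and 3.78 CPM (-3.77), and CHMP3 at 9.71, 6.28 and 7.56 CPM (-2.60). MVB12A lay at 0.39 and was not called. The 4 genes taken for cohesin acetylation and the SMC5/6 ligase, ESCO1, ESCO2, NSMCE1 and NSMCE2, were all called below, beside 20.3% of all genes. They lay between -2.43 and -1.96, and 3 of them were called over guides. ESCO2 was the most even of these, at 6.48, 7.58 and 8.64 CPM (SD 0.06). Of 11 genes of the CTLH ligase, GID8 (-1.60) and YPEL5 (-1.41) were called below over libraries (18.2%, beside 20.3% of all genes), neither over guides, and the call of YPEL5 was lost without library 1 (-1.04) or 3 (-1.46). The RING subunit MAEA (-0.54) and WDR26 (-0.73) were not called.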
